A study of Mus musculus with 12 samples.

Results

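The comparison described here set the RNA of a myelin-enriched membrane fraction of mouse brain at postnatal day 75 (P75), in the young adult, against that at postnatal day 18 (P18), during active myelination. It used 6 of the 12 samples of the series, 3 at each of these ages, chosen by the age in their labels, and every gene of the table that could be tested. All 6 came from male wild type mice of the inbred strain c57Bl6/N, and the labels name no treatment and no engineered allele, so age is the difference they give between the groups. The fraction was the light-weight membrane material purified from brain, which is enriched for myelin but is not myelin alone. The labels number the samples of an age and do not say whether each was a separate mouse or a pool, so a p-value here reflects how far samples of an age differ, which may be in part technical. The other 6 samples, from mice of 6 and 24 months, entered the fit to estimate that spread.

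Myelin is the membrane that oligodendrocytes wrap around axons, compacted by its structural proteins and rich in cholesterol and galactolipids. Oligodendrocytes carry some mRNAs, that of myelin basic protein above all, out along their processes and translate them at the sheath, whereas mRNAs of membrane-spanning and secreted proteins are translated at the endoplasmic reticulum. In the mouse brain most sheaths are laid down in the first weeks after birth, and the young adult maintains them and adds few. A membrane fraction made from such tissue can hold RNA of the sheath together with RNA of attached axons, glial processes and other membranes.

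Each of the 6 samples held 20299052 to 24097818 reads in genes and 16949 to 17142 genes with at least 1 read. Markers of the mature oligodendrocyte took 11.04% to 23.1% of all normalised counts at P18 and 5.87% to 8.29% at P75, most of it Mbp, and none of the markers in the table was at 0 in all 6 samples. Markers of other cells were present too: neuron markers took 0.881% to 1.27% and 1.13% to 1.31%, astrocyte markers 0.902% to 1.01% and 1.14% to 1.17%, and microglia markers 0.0404% to 0.0446% and 0.0626% to 0.0701% at P18 and P75. In a bulk fraction, a smaller share of material from a cell type and less RNA of a gene within that type cannot be told apart. P18 replicate 3 stood apart from the other P18 samples: Mbp took 9.47% of its counts against 15.1% and 20.8% in replicates 1 and 2, and many oligodendrocyte genes were lowest in it. Counts below are therefore given, for all genes and for many of the gene lists, also for the genes that passed without any 1 of the 12 samples.

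Between P18 and P75, 6051 of 14987 genes tested differed (40.4%; limma on log2 values, Benjamini-Hochberg adjusted p under 0.05). Of all genes tested, 21.7% were higher and 18.7% lower at P75, and these 2 shares are the background against which the gene groups below are read. Without any 1 sample the shares were 14.8% and 12.4%, and without P18 replicate 3 the number of calls was 6335. The median log2 fold change over all genes was 0.02, and most changes were small: the median size of a change was 0.54 on the log2 scale among the genes that passed. At least 2-fold changes that passed were found in 428 genes in the upward direction (2.86%) and in 263 in the downward direction (1.75%), and the samples of the 2 ages did not overlap in 7060 genes (47.1%). Scaling each sample to the sum of all its gene values in place of the authors' size factors moved the median of all genes to 0.14. Then 1432 rather than 2804 genes were lower, so that higher genes made up 73.7% of the calls rather than 53.7%. With Mbp left out of that sum, 2889 genes were higher and 3022 lower. Changes below are on the authors' scale, as log2 fold change ± SE. Each age had 3 samples, but the SE uses the variance that limma estimated from all 12 samples. Spread was unequal: the median SD of log2 values was largest for P18, 0.161, and smallest for 24 months, 0.115. The pooled SE may therefore be too small for this comparison. With only the 6 compared samples in the fit, 5048 genes passed.

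**Figure D1:**
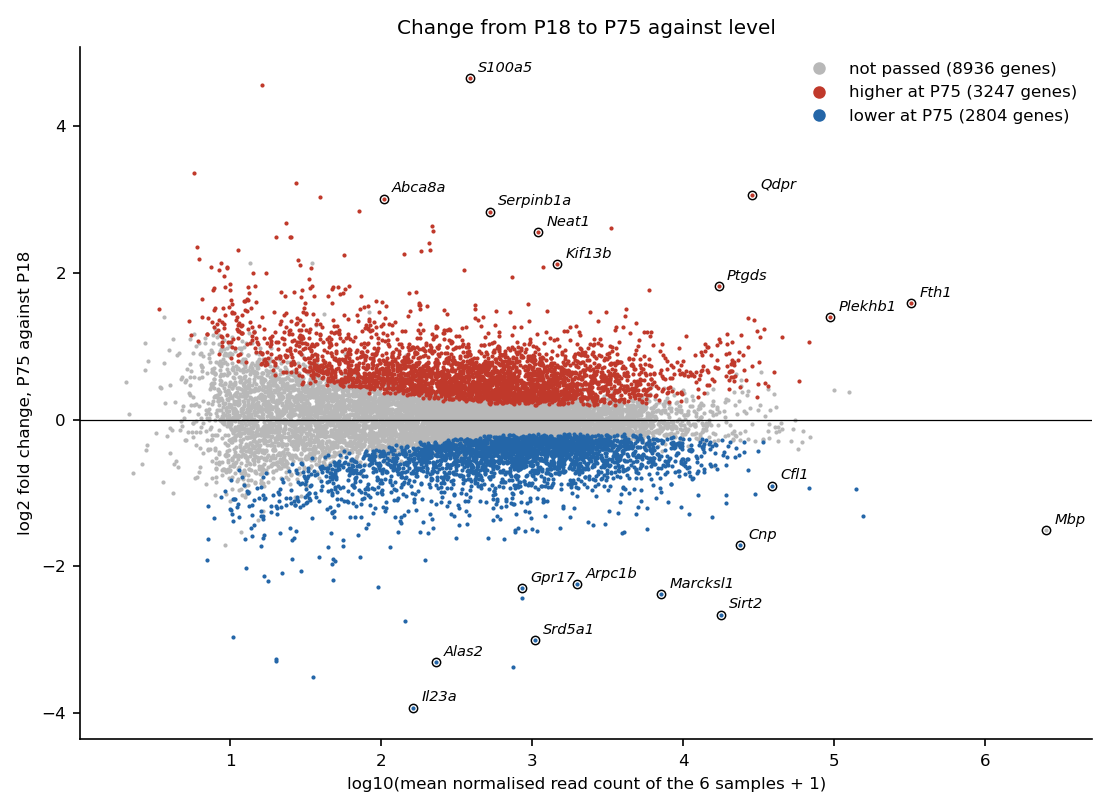
Each point is 1 of 14987 genes, with the mean normalised read count of the 6 samples on a log10 axis and the log2 fold change of P75 against P18 on the vertical axis. Red genes passed the limma test upward and blue genes downward; S100a5 (4.65) and Qdpr (3.06) lie near the top, and Il23a (-3.93) and Sirt2 (-2.66) near the foot.

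The gene with the most normalised counts was Mbp, which encodes myelin basic protein. It had 3686430.0, 5580860.0 and 2134340.0 at P18 and 1598640.0, 1130480.0 and 1067180.0 at P75 normalised counts. Every P75 sample lay below every P18 sample, but the P18 samples were far apart and the log2 fold change of -1.5 ± 0.60 did not pass (adjusted p = 0.0561); over the alternative settings this p ranged from 0.000218 with DESeq2 to 1 after quantile normalization, which places Mbp at the same top rank in every sample.

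Transcripts of the oligodendrocyte cytoplasm moved in both directions. Sirt2, a tubulin deacetylase of the sheath, had 27874, 36774 and 27628 at P18 and 4803, 5004 and 4658 at P75 normalised counts. The P75 samples lay close together and far under all P18 samples, and Sirt2 fell by 2.66 ± 0.12 (adjusted p = 5.22e-10). Cnp, a phosphodiesterase of the non-compact sheath, had 38563, 43229 and 27650.0 at P18 and 10448, 11629 and 10880.1 at P75 and fell by 1.71 ± 0.15. Against these, Qdpr, which regenerates tetrahydrobiopterin, a cofactor of amino acid hydroxylases, had 7228, 7925 and 3981 at P18 and 53662, 46635 and 53036 at P75. All P75 samples were high, P18 replicate 3 was the lowest of all, and Qdpr rose by 3.06 ± 0.22 (adjusted p = 1.24e-07). Fth1, the ferritin heavy chain that stores iron, had 198900.0, 221953 and 91427 at P18 and 524948, 418279 and 498505 at P75 and rose by 1.59 ± 0.39, and the 2 ages did not overlap. Plekhb1, a membrane-binding protein abundant in oligodendrocytes, rose by 1.4 ± 0.33, from 55231 ± 27048 to 133584 ± 24369 (SD, n = 3).

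The stretches of 250 bases before the transcription start of Qdpr and Sirt2 are shown because these were the transcripts of high abundance with the largest rise and the largest fall. They were taken from RefSeq on build GRCm38.p6, at chr5:45450230-45450479 on the minus strand and chr7:28766502-28766751 on the plus strand, and are written 5′ to 3′ along the gene. Capitals mark 2 motifs on either strand. The GC box, with the letters GGGCGG, is found in 32.7% of 32851 such stretches. The CCAAT box, searched by its 5 letters of that name, is found in 33.8%.
Qdpr: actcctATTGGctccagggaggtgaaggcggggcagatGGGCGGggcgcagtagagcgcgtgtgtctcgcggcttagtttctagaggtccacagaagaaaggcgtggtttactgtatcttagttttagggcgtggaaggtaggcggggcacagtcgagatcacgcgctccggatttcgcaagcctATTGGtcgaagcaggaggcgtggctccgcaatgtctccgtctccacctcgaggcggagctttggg
Sirt2: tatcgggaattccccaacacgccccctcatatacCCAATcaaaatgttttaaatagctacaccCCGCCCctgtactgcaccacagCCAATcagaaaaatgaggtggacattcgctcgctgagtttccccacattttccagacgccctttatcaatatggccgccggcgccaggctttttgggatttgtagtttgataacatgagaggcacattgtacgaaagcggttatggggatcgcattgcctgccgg
Both hold GC and CCAAT boxes, 1 and 2 matches in each case, and neither holds the TATA box, searched as TATAAA and found in 12.4% of all stretches. The GC content was 59.6% for Qdpr and 50% for Sirt2, against a median of 52.4%.

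**Figure D2:**
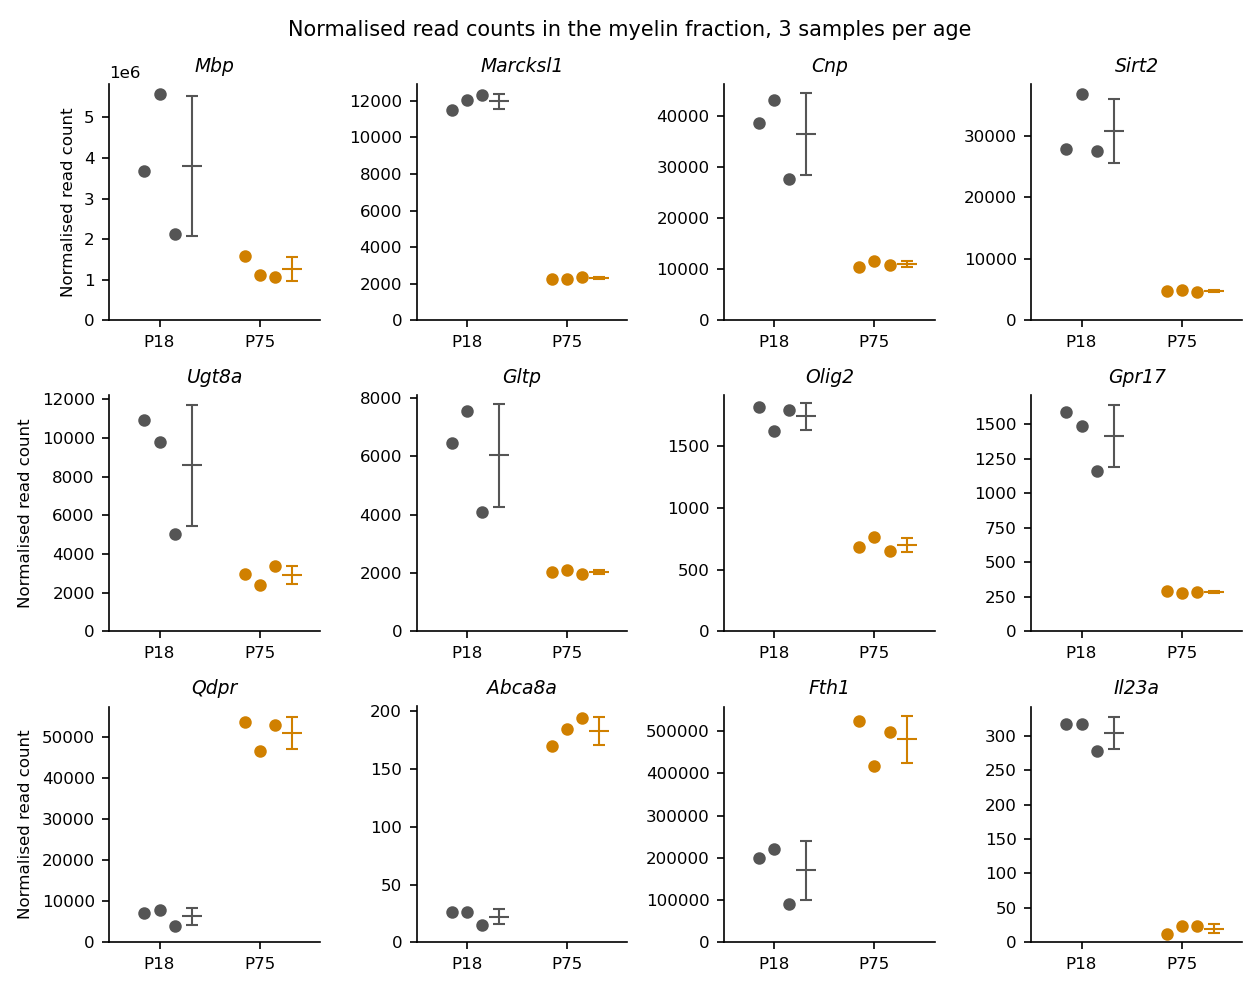
Normalised read counts of 12 genes in the 3 P18 samples (grey) and the 3 P75 samples (orange), each on an axis from 0, with the mean and SD beside the points. The 2 ages do not overlap in any of these genes; Mbp is the one that did not pass the test, and its P18 samples range from 2134340.0 to 5580860.0.

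Among all genes of at least moderate level, the largest rises were seen in a mixed set. S100a5, a calcium-binding protein of olfactory sensory neurons, had 129.5, 14.7 and 10.04 at P18 and 811, 584 and 759 at P75 normalised counts and rose by 4.65 ± 0.58; P18 replicate 1 was far above the other P18 samples, as it was for Omp, the olfactory marker protein, which had 177, 50.9 and 16.1 at P18 and 502, 282 and 272 at P75 and rose by 2.65 ± 0.52. Abca8a, a lipid transporter of the ABC family, had 26.1, 25.99 and 15.1 at P18 and 170.4, 185 and 195 at P75 and rose by 3.01 ± 0.20. Serpinb1a, a protease inhibitor of mature oligodendrocytes, had 181, 177 and 61.3 at P18 and 874, 831 and 1013 at P75 and rose by 2.84 ± 0.28. For both genes the samples of an age lay together, apart from a low P18 replicate 3, and the ages did not overlap. Neat1, a nuclear long non-coding RNA, rose by 2.56 ± 0.16, and Il33, a cytokine kept in the nucleus of oligodendrocytes and astrocytes, rose by 2.08 ± 0.13. Kif13b, a kinesin, rose by 2.12 ± 0.31, although the P75 samples ranged from 1518 to 3483.

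The largest falls were of a different kind. Il23a, a subunit of interleukin 23, had 317, 316 and 277 at P18 and 12.03, 23.2 and 24.3 at P75 normalised counts, high in all P18 samples and low in all P75 samples, and fell by 3.93 ± 0.31 (adjusted p = 2.88e-07). Alas2, the haem synthesis enzyme of red cell precursors, had 472, 362 and 414 at P18 and 44.1, 36.2 and 43.1 at P75 and fell by 3.3 ± 0.21. Srd5a1, the steroid 5-alpha reductase that makes neurosteroid precursors, had 1911, 2476 and 1204 at P18 and 200.4, 229.9 and 234 at P75 and fell by 3.01 ± 0.18. None of these 3 genes overlapped between the ages. Parvb, which links integrins to actin, fell by 2.43 ± 0.14, and Gpr17, a receptor of oligodendrocytes that are just differentiating, went from 1414 ± 226 to 285 ± 6.27 and fell by 2.29. Top2a, the topoisomerase of dividing cells, fell by 1.64 ± 0.28.

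Across the whole table, genes whose protein has a hydrophobic segment were more often higher than lower, and the other genes more often lower. This grouping was made after the changes had been seen, so it is a description without a test. A protein was counted as having a hydrophobic segment when 19 residues in a row had a mean Kyte-Doolittle hydropathy of at least 1.8, as many membrane spans and signal peptides do. Of 4174 such genes, 40.8% were higher and 9.15% lower, with a median log2 fold change of 0.28. Of 10275 genes without one, 14.5% were higher and 22.9% lower, with a median of -0.06. Scaling to all gene values turned the balance of the genes without a segment, to 19.1% higher and 11.4% lower. It left those with one further up, at 46.7% and 5.39%. With Mbp left out of that sum, 12.4% of genes without a segment were higher and 24.7% lower. These classes are not the same as protein types. Apod, a secreted apolipoprotein, had no segment by this rule, and 3 of 34 chromatin regulators had one.

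The share of higher genes varied among the classes. Genes of proteins with 4 or more segments, such as channels and transporters, were higher in 49.9% and lower in 4.76% of 967 cases. Genes whose only segment lay within the first 35 residues, where signal peptides lie, were higher in 46.3% and lower in 7.04% of 611 cases. With segments both there and further on the shares were 43.6% and 6.87%, and with segments only further on 39.05% and 10.03%. These classes are by position, and genes with 4 or more segments are also counted among them. Genes with a segment were more often higher than lower at every protein length: among proteins of 45 to 295 residues 33.4% were higher and 14.04% lower, and among those of 756 residues and more 48.2% and 6.23%. Genes without one were more often lower in the shorter proteins, with 10.7% higher and 26.1% lower at 45 to 295 residues, but not at 756 residues and more, where 21.2% were higher and 16.3% lower. Cldn11, Mal, Mog and Mag, which encode membrane proteins of myelin itself, went the other way.

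**Figure D3:**
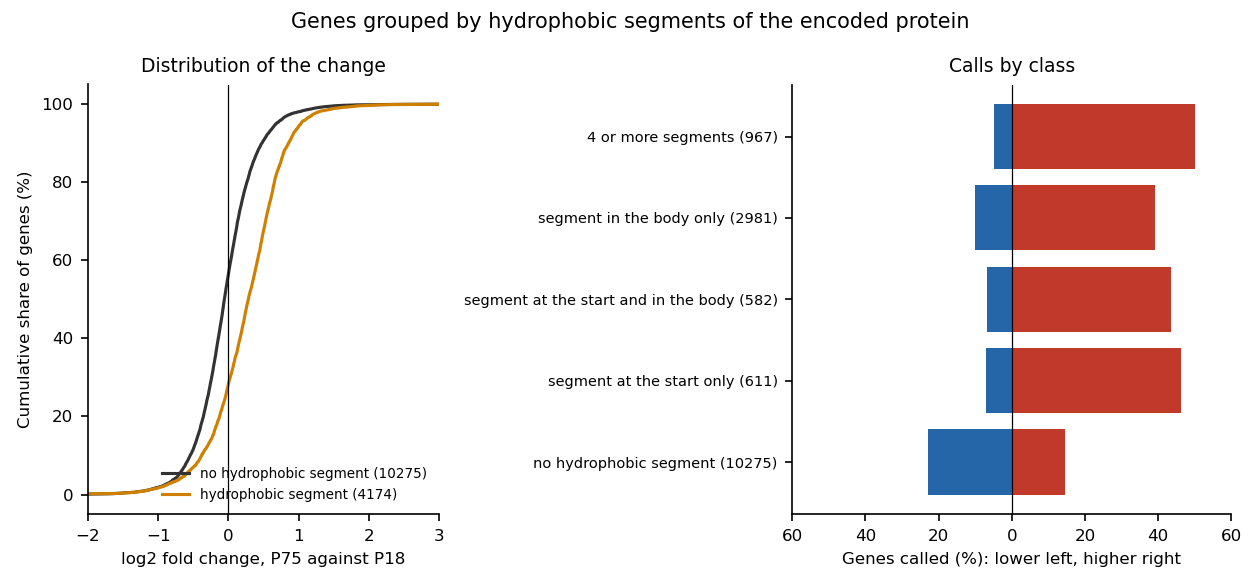
Left, cumulative share of genes (%) by log2 fold change of P75 against P18, for genes whose protein has a hydrophobic segment (orange) and for the others (black); the orange curve lies to the right. Right, the percentage of genes called higher (red) and lower (blue) in each class, with the number of genes; genes with 4 or more segments are also counted in the other classes.

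Genes of the sheath itself had members in both directions in either compartment. Among compact myelin membrane proteins, 6 of the 19 tested members were higher and 8 lower, 5 and 5 of them also without any 1 sample, and the median log2 fold change was -0.23; without P18 replicate 1 or without P18 replicate 2, 5 were lower, and scaling to all gene values gave 7 higher and 7 lower. Cldn11, the claudin of the tight junctions between myelin layers, fell by 1.29 ± 0.13, Mal, a raft protein of myelin, fell by 1.13 ± 0.15, and the tetraspanin Tspan2 fell by 0.88 ± 0.15. The tetraspanins Cd63 and Tspan3, which are also found in endosomes, rose by 1.01 and 0.62. Among non-compact myelin and sheath cytoskeleton genes, 6 of the 30 tested members were higher and 11 lower, 4 and 9 of them also without any 1 sample, and the median log2 fold change was -0.24; scaling to all gene values gave 9 higher and 8 lower. Gsn, the actin-severing protein gelsolin, fell by 1.55 ± 0.14, and the septins Sept5 and Sept2 fell by 0.95 and 0.69.

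At the contact between axon and glia the balance was upward. Among junction and node genes, 14 of the 28 tested members were higher and 4 lower, 14 and 4 of them also without any 1 sample, and the median log2 fold change was 0.30. Mog, an immunoglobulin protein of the outermost myelin layer, fell by 1.11 ± 0.13, and Mag, an adhesion protein of the innermost layer, fell by 0.64 ± 0.12. In the axonal membrane, Scn1a, a sodium channel, rose by 1.22 ± 0.11, and Cntn2, an adhesion protein of the region beside the paranode, rose by 0.84 ± 0.13. Omg, oligodendrocyte myelin glycoprotein, rose by 0.54. Of the connexins and glial ion channels, 8 of 19 were higher, but 5 without P75 replicate 2 or without P75 replicate 3.

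Genes that make the galactolipids of myelin were lower. Galactosylceramide and sulfatide are its characteristic glycolipids, made from ceramide by Ugt8a and Gal3st1 and degraded in the lysosome. Ugt8a, the galactosyltransferase, had 10949, 9815 and 5029 at P18 and 2982, 2417 and 3374 at P75 normalised counts and fell by 1.49 ± 0.22 (adjusted p = 7.88e-05). Gal3st1, the sulfotransferase, had 1353, 1277 and 773 at P18 and 326, 382 and 471 at P75 and fell by 1.5 ± 0.17. Gltp, which transfers glycolipids between membranes, had 6449, 7529 and 4087 at P18 and 2024, 2089.8 and 1960.0 at P75 and fell by 1.53 ± 0.16. The 3 P75 samples of each gene lay together under all P18 samples, of which replicate 3 was the lowest each time. Fa2h, which hydroxylates the fatty acids of these lipids, fell by 1.04 ± 0.13.

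On the side of breakdown, Arsa, which removes the sulfate of sulfatide, rose by 0.80 ± 0.10, from 252 ± 11.99 to 441 ± 36.4. Galc, which degrades galactosylceramide itself and was singled out after its values were seen, rose by 0.48 ± 0.09, with no overlap between the ages. Over the whole list of sphingolipid synthesis and breakdown, 18 of the 28 tested members were higher and 5 lower, 16 and 5 of them also without any 1 sample, and the median log2 fold change was 0.40. The rises were smaller than the 4 largest falls. Not all synthesis fell: Kdsr, which acts early in ceramide synthesis, rose by 0.79.

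The stretches before the starts of Ugt8a and Gltp, from the same RefSeq table, are shown because these galactolipid genes fell together. They lie at chr3:125938653-125938902 on the minus strand and chr5:114690936-114691185 on the minus strand, and capitals have the same meaning as above.
Ugt8a: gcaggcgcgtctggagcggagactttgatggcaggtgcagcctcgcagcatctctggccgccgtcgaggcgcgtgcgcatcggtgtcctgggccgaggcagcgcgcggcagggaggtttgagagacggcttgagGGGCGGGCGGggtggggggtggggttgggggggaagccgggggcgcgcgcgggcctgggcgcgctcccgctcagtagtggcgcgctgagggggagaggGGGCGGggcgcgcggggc
Gltp: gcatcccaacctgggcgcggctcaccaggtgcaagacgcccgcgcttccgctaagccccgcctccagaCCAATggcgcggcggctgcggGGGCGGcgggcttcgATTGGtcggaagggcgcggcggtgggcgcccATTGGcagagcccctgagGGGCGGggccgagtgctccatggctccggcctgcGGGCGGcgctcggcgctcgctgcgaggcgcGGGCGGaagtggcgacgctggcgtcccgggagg
Both have a GC content of 76.8%. Ugt8a holds 3 GC boxes, 2 of them overlapping, and no CCAAT box, and Gltp holds 4 GC boxes and 3 CCAAT boxes. Neither holds the TATA box. An E-box, searched as CAGCTG and found in 13% of all stretches, was absent from both windows. The core of SOX factor sites, searched as ACAAAG and found in 16.5% of all stretches, was absent too.

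**Figure D4:**
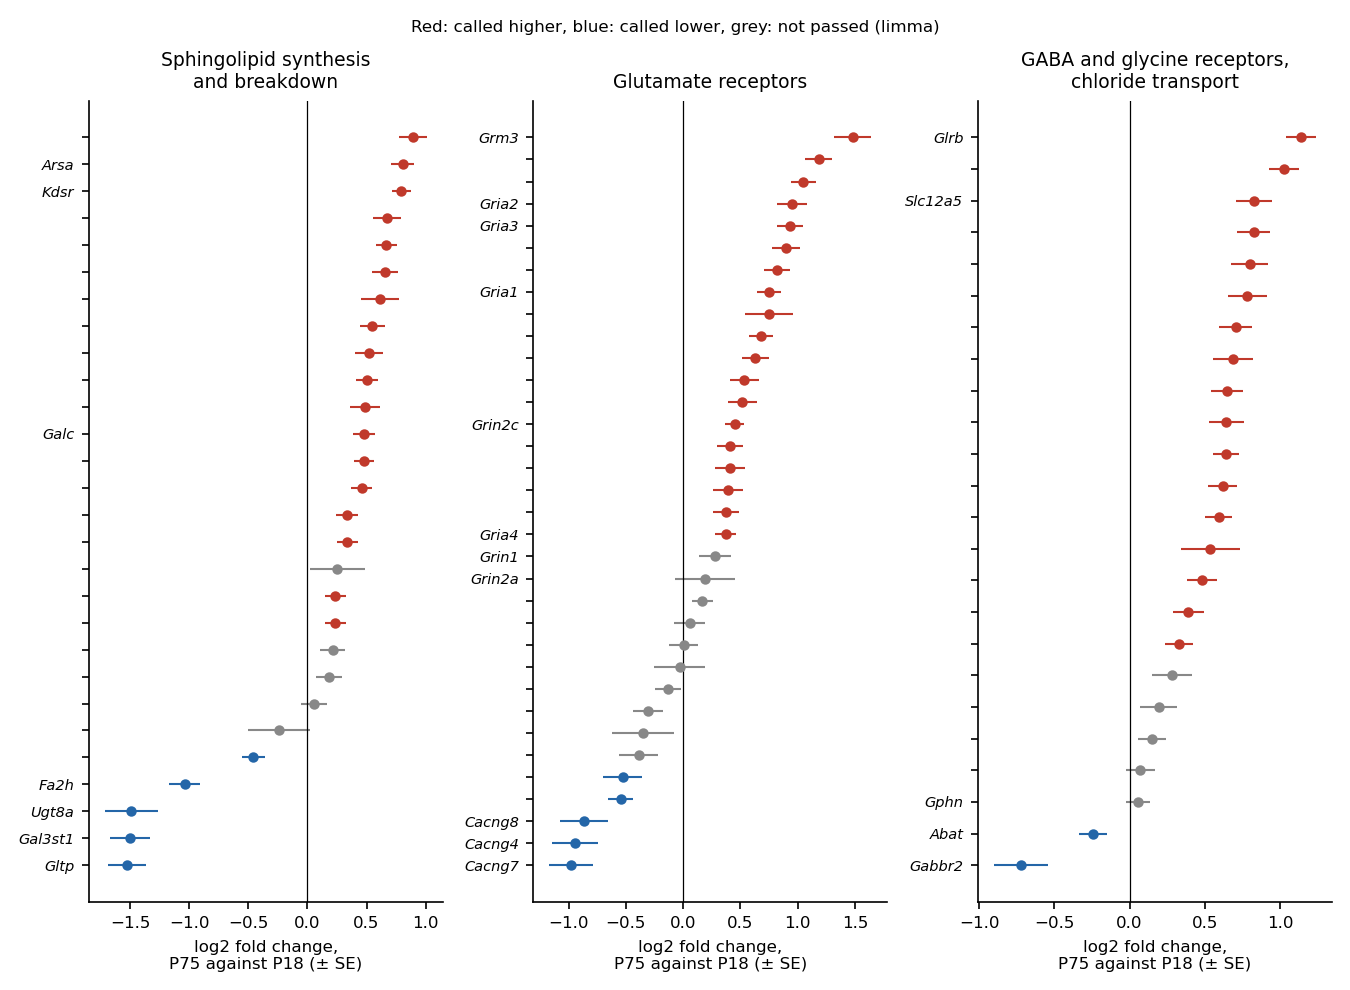
Log2 fold change of P75 against P18 (points, with bars of ± 1 SE) for each tested gene of 3 lists, ordered by size; red points passed the limma test upward, blue points downward and grey points did not pass, and genes named in the text are labelled. Gltp, Gal3st1, Ugt8a and Fa2h stand apart at the foot of the first panel, while most receptor subunits lie to the right of 0.

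Other lipid groups were uneven. Among genes of sterol sensing, uptake and efflux, 16 of the 28 tested members were higher and 3 lower, 13 and 1 of them also without any 1 sample, and the median log2 fold change was 0.43; without P18 replicate 1 or without P75 replicate 2, 1 was lower. Srebf1, a transcription factor of lipid synthesis, had 478, 415 and 445 at P18 and 1021, 1072 and 1108 at P75 normalised counts and rose by 1.26 ± 0.09, and Scap, which escorts such factors to the Golgi, rose by 0.70. Cyp27a1, which oxidises cholesterol, rose by 0.95, and Abcg1, a sterol exporter, by 0.77. For fatty acid synthesis and desaturation, 7 of 26 were higher and 9 lower, and scaling to all gene values turned this to 9 higher and 7 lower. With Mbp left out of that sum, 7 were higher and 9 lower. Elovl1, which elongates fatty acids to the very long chains of myelin, fell by 1.09 ± 0.11, and the fatty acid binding proteins Fabp5 and Fabp3 fell by 0.74 and 0.62, whereas Fads3, of the desaturase family, rose by 0.78.

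Of the tetrahydrobiopterin enzymes, Qdpr was the only one of 8 tested that was higher. Gch1, the first enzyme of synthesis, was lower by 0.61, a call kept in 11 of 25 alternative settings. Pts, Spr, Pcbd1 and Pcbd2 did not pass, with log2 fold changes of 0.04, 0.02, 0.07 and 0.20.

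The transcription factors of the oligodendrocyte lineage that passed the test were lower at P75. Of 30 tested, 15 were lower and 0 higher, 14 of the lower ones also without any 1 sample, and the median was -0.37; without P18 replicate 1, 1 was higher. Olig2, which specifies the lineage, had 1813, 1615 and 1785 at P18 and 684, 764 and 648 at P75 normalised counts and fell by 1.31 ± 0.11 (adjusted p = 4.9e-07). Sox10, which drives myelin genes, had 2789, 2531 and 2617 at P18 and 1206, 1377 and 903 at P75 and fell by 1.21 ± 0.14. The ages were well apart for both, with P18 samples close together. Olig1 and Sox4, the second a factor of immature cells, fell by 1.12 and 1.31. Myrf, the myelin regulatory factor, listed in the table under its older symbol Gm98, was lower by 0.39, a call kept in 21 of 25 alternative settings.

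Precursor markers were mixed: among them 3 of the 15 tested members were higher and 5 lower, 2 and 4 of them also without any 1 sample, and the median log2 fold change was -0.19; scaling to all gene values gave 3 higher and 3 lower. Beside Gpr17, Neu4, a sialidase, fell by 1.1 ± 0.11. Pdgfra, the growth factor receptor that defines precursors, did not pass (-0.04 ± 0.10), and Cspg5 and Ptprz1, proteoglycans of these cells, rose by 0.74 and 0.56. In the list headed secreted and plasma proteins of adult oligodendrocytes, which also holds Serpinb1a and products of the nucleus such as Neat1 and Il33, 15 of the 31 tested members were higher and 3 lower, 13 and 1 of them also without any 1 sample, and the median log2 fold change was 0.51; 1 was lower without P18 replicate 2 and 6 without P18 replicate 3. The list was drawn with earlier results of these samples known, so its direction is not independent evidence. Ptgds, prostaglandin D synthase, rose by 1.82 ± 0.12, and Apod, apolipoprotein D, rose by 0.98 ± 0.15.

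Signalling genes are given by position in their pathways, and the difference between positions was not tested. Among growth factor receptors and ligands of the lineage, 14 of the 31 tested members were higher and 5 lower, 13 and 4 of them also without any 1 sample, and the median log2 fold change was 0.14. The receptors Fgfr2, Kit, Insr and Fgfr1 rose by 1.08, 0.83, 0.68 and 0.67. The largest fall in this list, with a log2 fold change of -2.29, was that of the receptor Gpr17. Of the 14 higher members 13 encode a hydrophobic segment, and of the 5 lower ones 3 do. Downstream, among PI3K, mTOR and MAP kinase genes, 4 of the 29 tested members were higher and 14 lower, 2 and 10 of them also without any 1 sample, and the median log2 fold change was -0.22; without P18 replicate 1, without P18 replicate 2 or without P75 replicate 3, 2 were higher, and scaling to all gene values gave 6 higher and 8 lower. Mapk3, the kinase ERK1, fell by 0.73, its feedback inhibitor Spry4 by 1.11, and Eif4ebp2, a translation repressor under mTOR, by 0.92. All named receptors carry membrane spans, and 3 of the 29 downstream genes encode a hydrophobic segment, against 24 of 31 in the receptor and ligand list.

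In the developmental pathways, single genes changed in either direction. Bmp4, a secreted factor that holds back oligodendrocyte differentiation, had 156, 172 and 245 at P18 and 67.1, 57.5 and 67.4 at P75 normalised counts and fell by 1.54 ± 0.17, and Id3, a target of such factors, fell by 0.81. Tgfb3, another ligand of the same superfamily, had 261, 350.3 and 290.3 at P18 and 1454, 1049.6 and 992 at P75 and rose by 1.94 ± 0.16, and its receptor Tgfbr2 rose by 0.79. Over that list, 9 of the 24 tested members were higher and 4 lower, 9 and 3 of them also without any 1 sample, and the median log2 fold change was 0.16. In the Notch list, 5 of 23 were higher, with the ligands Jag1 and Dner at 1.26 and 1.0, and 5 lower, with the coactivator Maml3 and the Notch inhibitor Numbl down by 0.80 and 0.67; these shares of 21.7% and 21.7% lie near those of all genes, 21.7% and 18.7%. In the Wnt list, 10 of 29 were higher, among them the receptor Fzd7 (1.18) and the secreted Dkk3 (1.21). In the same list 8 were lower, among them Apc, which drives degradation of beta-catenin and fell by 1.33 ± 0.12. Also without any 1 sample, 7 were higher and 5 lower. Of the 12 Hedgehog genes tested 4 were higher; the ligand Shh rose by 0.80 and the coreceptor Boc by 0.73, but 2 were higher without P18 replicate 1 or without P75 replicate 1.

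Actin genes were mostly lower. Actin filaments assemble at the leading edge of a growing sheath and are taken apart as it spreads. Of the actin turnover genes, 2 of the 41 tested members were higher and 26 lower, 2 and 23 of them also without any 1 sample, and the median log2 fold change was -0.43. Marcksl1, which binds actin at the membrane, had 11509.7, 12062 and 12315 at P18 and 2258, 2269.7 and 2375 at P75 normalised counts and fell by 2.38 ± 0.08 (adjusted p = 2.08e-11). Arpc1b, a subunit of the Arp2/3 complex that nucleates branched filaments, had 3627, 3931 and 2324 at P18 and 652, 633 and 746 at P75 and fell by 2.25 ± 0.15; both genes were high in every P18 sample and did not overlap with P75. Fscn1, which bundles filaments, fell by 1.27 ± 0.11, the depolymerising factor Cfl1 fell by 0.90 ± 0.13, and the kinase Fyn, which acts from axon contact to process outgrowth, fell by 1.0 ± 0.08. Among the other Arp2/3 subunits, Arpc5 fell by 0.76. Of the 41 genes, 1 encodes a hydrophobic segment, and it was lower.

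Among microtubule genes the balance was downward, but not under scaling to all gene values. Of 33 tubulins and microtubule proteins, 12 were lower and 3 higher, with a median of -0.18; 7 were lower without P75 replicate 3, and 1 was higher without P18 replicate 1 or 2 and none without P75 replicate 2. Also without any 1 sample, 6 were lower and 0 higher. Scaling to all gene values gave 6 higher and 5 lower, with a median of -0.05. With Mbp left out of that sum, 2 were higher and 12 lower. Tuba1a and Tubb2b, tubulins of growing neurons, fell by 0.53 and 0.55, the doublecortin gene Dcx by 0.78 and the end-binding protein Mapre1 by 0.70. Tubb3, Mtap2 and Mapt did not pass, at 0.04, 0.00 and 0.19. Among kinesin and dynein genes, 7 of the 47 tested members were higher and 13 lower, 5 and 10 of them also without any 1 sample, and the median log2 fold change was -0.19. Beside Kif13b, Kif16b, a motor of endosomes, rose by 0.65, Kif26a fell by 1.41 and the dynein chain Dync1li1 by 0.76.

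Neuronal genes divided by product, with most changes upward among receptors and channels and downward among dendritic scaffolds. Of glutamate receptor genes, 19 of the 34 tested members were higher and 5 lower, 15 and 4 of them also without any 1 sample, and the median log2 fold change was 0.38. Grm3, a metabotropic receptor of glia and neurons, had 368, 345 and 214 at P18 and 833, 829 and 859 at P75 normalised counts and rose by 1.48 ± 0.16. The AMPA receptor subunits Gria2, Gria3, Gria1 and Gria4 rose by 0.95, 0.93, 0.75 and 0.37. The auxiliary subunits Cacng7, Cacng4 and Cacng8, which carry AMPA receptors to the surface, were lower, with log2 fold changes of -0.98, -0.94 and -0.87. Of the NMDA receptor subunits, Grin2c rose by 0.45, while Grin1 and Grin2a did not pass (0.28 and 0.19).

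Most GABA and glycine receptor genes were higher. In their list, 17 of the 24 tested members were higher and 2 lower, 15 and 1 of them also without any 1 sample, and the median log2 fold change was 0.61. Glrb, the beta subunit of the glycine receptor, had 3819, 3708 and 3765 at P18 and 7315, 8319 and 9367 at P75 normalised counts and rose by 1.14 ± 0.10. Slc12a5, the chloride exporter of mature neurons, rose by 0.83. Gabbr2, a subunit of the GABA-B receptor, had 165, 159 and 203 at P18 and 131, 108 and 82.9 at P75 and fell by 0.72 ± 0.18; at 6 months it stood at 1195 ± 284. Gphn, the cytoplasmic scaffold of these receptors, did not pass (0.05 ± 0.08). The 2 lower members were Gabbr2 and Abat, and Abat did not pass in 14 of 25 alternative settings.

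Ion channel genes, too, were more often higher than lower. Among sodium and calcium channels, 20 of the 30 tested members were higher and 2 lower, 19 and 1 of them also without any 1 sample, and the median log2 fold change was 0.53; 1 was lower without P18 replicate 2, without P75 replicate 2 or without P75 replicate 3. Itpr1, a calcium release channel, and Scn4b, an auxiliary sodium channel subunit, rose by 1.2 and 0.95, and Nalcn, a leak channel, by 0.93. Among potassium channels, 20 of the 46 tested members were higher and 3 lower, 17 and 2 of them also without any 1 sample, and the median log2 fold change was 0.23. Kcnc1, Kcna4 and Kcnd2, voltage-gated channels of neurons, rose by 0.88, 0.87 and 0.77.

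In contrast, dendritic and postsynaptic mRNAs that passed were lower. Of 30 tested, 16 were lower and none higher, 11 of the lower ones also without any 1 sample, with a median of -0.29; 2 were higher without P18 replicate 3 and 1 without P75 replicate 3, and scaling to all gene values gave 2 higher and 9 lower. Nrgn, neurogranin, whose mRNA is carried into dendrites, had 21766, 22530.2 and 33329 at P18 and 12301, 14193 and 11067 at P75 normalised counts and fell by 1.03 ± 0.16. The postsynaptic scaffolds Shank1, Dlg4 and Dlgap3 fell by 1.21, 0.80 and 0.73. Of the 30 genes, 1 encodes a hydrophobic segment.

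Genes of synaptic vesicle release, a list that mixes both kinds of protein, split between them: 11 of the 43 tested members were higher and 20 lower, 8 and 18 of them also without any 1 sample, and the median log2 fold change was -0.22. Of its 18 genes with a hydrophobic segment, 7 were higher and 4 lower, and of the others 4 were higher and 16 lower. Slc17a6, the glutamate transporter of subcortical vesicles, rose by 0.66. Rims2, of the active zone, the small GTPase Rab3a and the vesicle-associated Syn1 fell by 1.12, 0.72 and 0.70, and so did Vamp2 and Stx1a, which do span the membrane, by 0.81 and 0.92. The summed share of the neuron markers was close at the 2 ages, as given above, and 7 of 15 neuron markers were lower and 2 higher (4 without P18 replicate 3; 1 without P18 replicate 1, P18 replicate 2 or P75 replicate 2). What part this had in the neuronal changes was not tested.

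Growth cone and immature neuron genes were mostly lower. Of 32 tested, 21 were lower, 17 of them also without any 1 sample, and 5 were higher (2 without P18 replicate 2; 3 without P18 replicate 1, P75 replicate 1 or P75 replicate 3). The median was -0.48. Dpysl5, a regulator of neurite growth, fell by 1.15, Cd24a by 0.80 and Gap43, the growth-associated protein, by 0.63. Among neurofilaments and intermediate filaments, 7 of 11 were lower (4 without P18 replicate 1 or P75 replicate 3, and 3 under scaling to all gene values), with Ina, a filament of young axons, at a fall of 1.11 and Nefl at 0.46.

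Guidance molecules, which also act in growth, were instead more often higher than lower. Over ephrins, semaphorins, netrins, slits and their receptors, 33 of the 59 tested members were higher and 4 lower, 26 and 3 of them also without any 1 sample, and the median log2 fold change was 0.40; 52 of the 59 encode a hydrophobic segment. Of these 52 genes, 27 were higher and 4 lower, and of the guidance genes without a segment 6 were higher and 0 lower. Epha7 and Epha4, ephrin receptors, rose by 0.98 and 0.71, and the semaphorin receptors Plxna3 and Plxnc1 by 0.83 and 0.73. Sema4d and Sema6a, semaphorins that oligodendrocytes make, fell by 1.24 and 1.13, although both are membrane proteins.

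Lysosomal genes were mostly higher. Of the lysosome and cathepsin genes, 25 of the 34 tested members were higher and 1 lower, 23 and 0 of them also without any 1 sample, and the median log2 fold change was 0.49; the count of lower ones was 3 without P18 replicate 3 and 0 without any 1 of P18 replicates 1 and 2 and P75 replicates 1 and 2. Ctss, a cathepsin of microglia, had 1403, 1394 and 1121 at P18 and 2576, 2503 and 2924 at P75 normalised counts and rose by 1.03 ± 0.12, with all P75 samples above all P18 samples. Ctsz, Gaa, Ctsb and Ctsa, hydrolases of most cells, rose by 0.83, 0.78, 0.74 and 0.63. Of the 18 lysosome and cathepsin genes with a hydrophobic segment, 13 were higher and 0 lower. Among those without one, 12 were higher and 1 lower. Of 20 microglia markers, 12 were higher, 9 of them also without any 1 sample, and 0 lower, with a median of 0.38. Their summed share did not overlap between the ages. Trem2, a receptor of microglia, rose by 0.62. Ctss is a member of both lists. The part of the microglia markers in the lysosomal result was not tested.

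Among genes of protein synthesis and quality control, those of the endoplasmic reticulum that passed were higher; a difference between compartments was not tested. In the list of endoplasmic reticulum folding and stress, 16 of 40 were higher, 12 of them also without any 1 sample, and none was lower. When 1 sample was left out, 2 were lower without P18 replicate 3 and 1 without 24 months replicate 1. With TMM scaling, with edgeR and with scaling to all gene values without Mbp, 1 was lower each time. Ssr1, of the translocon, and the oligosaccharyltransferase subunits Rpn1 and Rpn2 rose by 0.87, 0.86 and 0.65. Proteasome genes were lower in 8 of 39 cases (5 without P18 replicate 3 or P75 replicate 1) and mitochondrial ribosomal proteins in 20 of 76 (6 without P75 replicate 1, 10 without P18 replicate 2 and 12 without P18 replicate 1). Their medians of -0.07 and -0.10 turned positive under scaling to all gene values, at 0.05 and 0.02. That scaling gave 4 higher and 3 lower in the first list and 6 higher and 1 lower in the second. With Mbp left out of the sum the medians were -0.10 and -0.13. Also without any 1 sample, 5 members of each list were lower. The share of lower proteasome genes lay near the 18.7% of all genes.

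Among translation factors, 11 of 43 were lower and 4 higher. The median of -0.08 also changed sign under scaling to all gene values, to 0.04, with 8 higher and 5 lower. With Mbp left out of that sum, 4 were higher and 12 lower. The initiation factors Eif5a and Eif4a1 fell by 0.59 and 0.54, while Eef1b2 and Eef1d, parts of the elongation factor exchange complex, rose by 0.88 and 0.84. RNA-binding proteins of myelin mRNA were higher in 7 and lower in 7 of 37 cases, with Purb, which binds such transcripts, at a fall of 1.33; scaling to all gene values gave 10 higher and 2 lower. Of the splicing factors, 6 of 36 were higher and 8 lower, and under that scaling 10 higher and 3 lower. On the authors' scale the higher and lower shares were 18.9% and 18.9% for the RNA-binding proteins and 16.7% and 22.2% for the splicing factors. Both lie near the 21.7% and 18.7% of all genes.

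In the nucleus, chromatin regulators were lower in 12 of 34 cases and higher in 4, with a median of -0.18. Also without any 1 sample, 8 were lower and 4 higher. Scaling to all gene values gave 5 higher and 6 lower. The DNA methyltransferase Dnmt3a and the demethylating enzymes Tet1 and Tet3 fell by 0.87, 1.01 and 0.75, and the acetyltransferase Ep300 rose by 0.58. Among thyroid and retinoid response genes, 3 of the 24 tested members were higher and 9 lower, 2 and 9 of them also without any 1 sample, and the median log2 fold change was -0.19. Thra, the thyroid hormone receptor most abundant in brain, and its corepressor Hr fell by 1.02 and 1.11, and Dio2, which makes active hormone, by 0.86. The carriers Ttr and Rbp4 rose by 0.90 and 0.91.

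Glycolysis and axon support genes were lower in 11 of 33 cases (7 without P75 replicate 3) and higher in 3 (1 without P75 replicate 1). Also without any 1 sample, 6 were lower and 1 higher. The balance turned under scaling to all gene values, to 6 higher and 3 lower, with the median going from -0.10 to 0.02. With Mbp left out of that sum, 3 were higher and 11 lower. The glycolytic enzymes Ldha and Tpi1 fell by 0.54 and 0.53, and the glucose transporter Slc2a1 rose by 0.49. Of peroxisome and plasmalogen genes, 9 of 30 were lower and 4 higher (2 without P75 replicate 3). Also without any 1 sample, 5 were lower and 2 higher. The import receptor relative Pex5l rose by 1.26, and Pex19, which inserts peroxisomal membrane proteins, fell by 0.65. Here too the balance turned under scaling to all gene values, to 4 higher and 2 lower. With Mbp left out of that sum, 3 were higher and 10 lower.

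Genes of the matrix and of other cells were also found among the changes. Efemp1 and Dmp1, secreted matrix proteins, rose by 2.41 and 2.58, and Spp1, osteopontin, by 1.48; over collagens and matrix, 14 of the 49 tested members were higher and 9 lower, 10 and 4 of them also without any 1 sample, and the median log2 fold change was 0.20. Among integrins and laminins, 17 of the 37 tested members were higher and 4 lower, 10 and 4 of them also without any 1 sample, and the median log2 fold change was 0.18, with the laminin chain Lamb2 up by 0.93 and nidogen, Nid1, down by 1.47. Of astrocyte markers, 7 of 18 were higher and 2 lower. Gfap, the astrocyte filament, had 14618, 11249 and 6991 at P18 and 6069.8, 5569 and 5547 at P75 normalised counts and fell by 0.87 ± 0.20. Its P18 samples spread widely, with replicate 1 high and replicate 3 close to the P75 samples. Of endothelial and mural markers, 8 of 23 were higher and 2 lower, the lower ones by 0.43 and 0.69. Pdgfrb, the receptor of pericytes, rose by 0.88, and the fibroblast proteoglycans Lum and Dcn by 1.73 and 1.56. Ttr, the main product of the choroid plexus, had 14188, 12097 and 14034 at P18 and 24235, 28194 and 22809 at P75, and the choroid plexus channel Kcnj13 rose by 1.53. Over the 14 ependyma and choroid plexus markers tested, 4 were higher and 1 lower.

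Some markers of brain regions changed. Of olfactory markers, 12 of 27 were higher and 3 lower, and their summed share was 0.0986% to 0.119% at P18 and 0.109% to 0.113% at P75, so that the sum overlapped while S100a5 and Omp did not. Of striatal and cerebellar neuron markers, 6 of 25 were higher, led by Itpr1 and by Penk, a neuropeptide precursor (1.09), and 5 lower, with Zic1, a factor of cerebellar granule cells, down by 0.72; these shares lie near the 21.7% and 18.7% of all genes. Of 14 Hox genes tested, markers of hindbrain and cord, 1 was higher with all samples and 8 without P18 replicate 1, in which their summed share was the highest of the P18 samples. The share of brain regions in each sample was not tested as a part of other results.

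**Figure D5:**
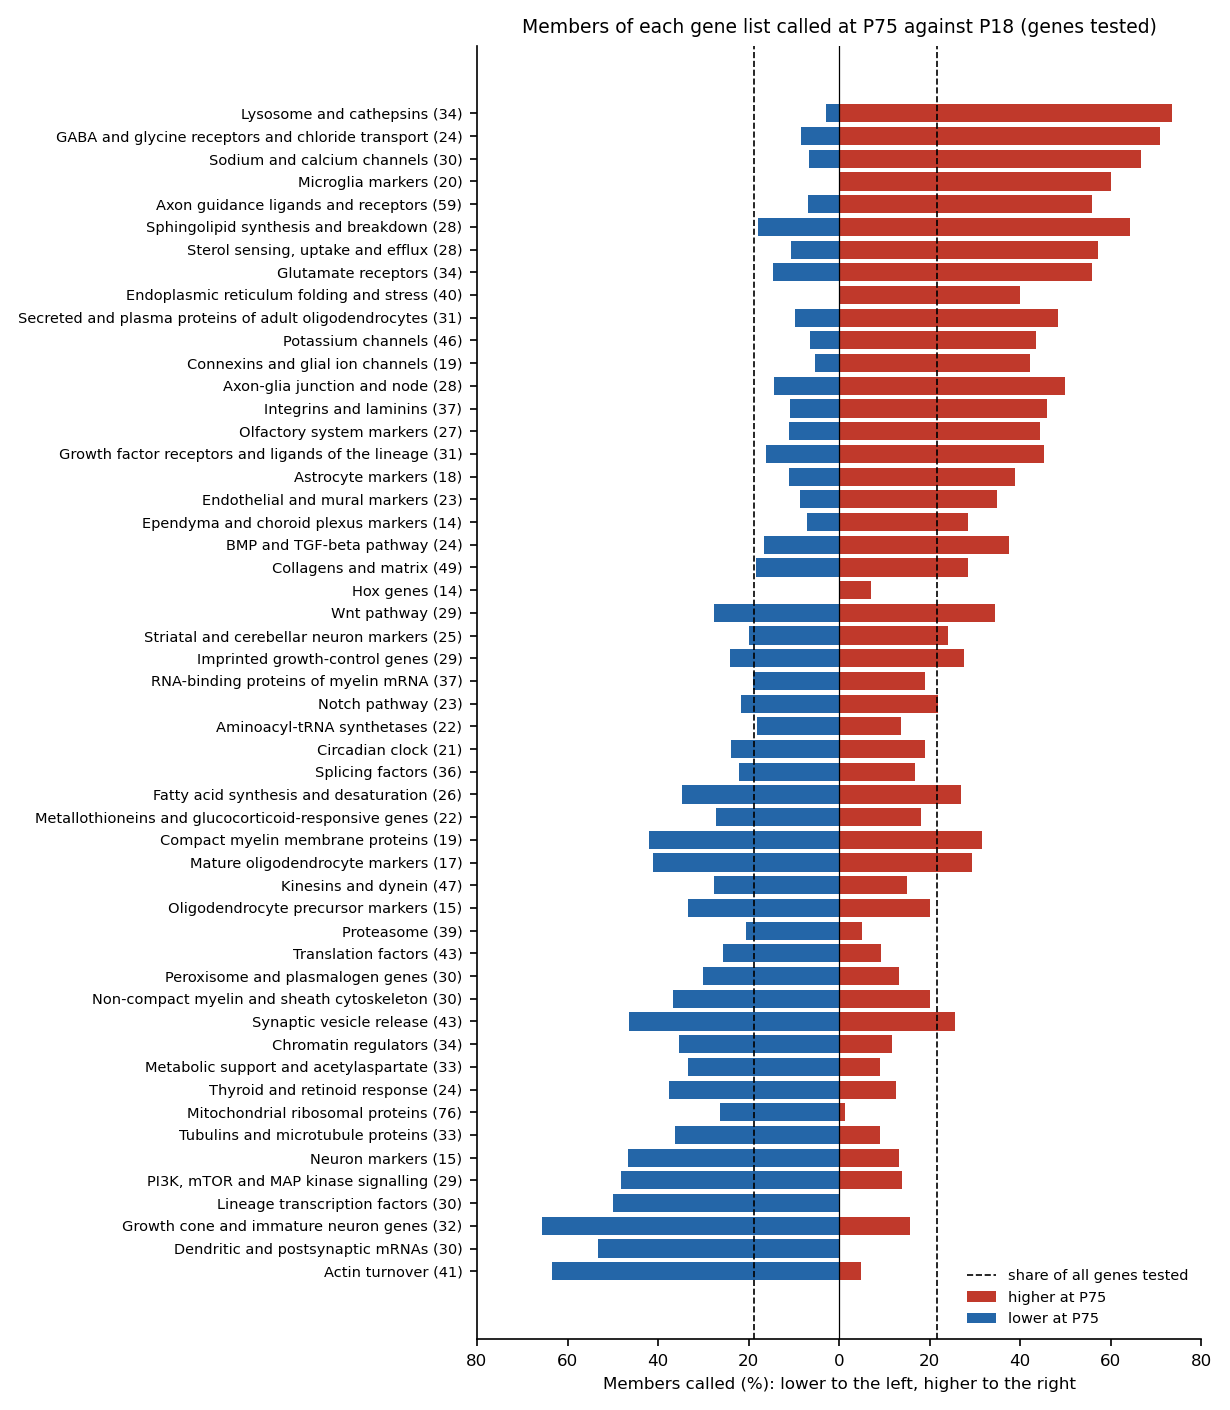
Percentage of tested members called higher (red, to the right) and lower (blue, to the left) at P75 in each gene list with at least 14 tested genes, ordered by the difference, with the number tested in brackets. Dashed lines mark the shares of all genes, 21.7% higher and 18.7% lower; lysosome, receptor and channel lists lie at the top and actin, dendritic and growth cone lists at the foot.

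Values at the later ages show where the P75 levels lay in the course of adult life. Since these ages are compared with the same P75 samples, the levels are given side by side without a test. Sirt2 stayed near its P75 level, at 3815, 4795 and 3767 normalised counts at 6 months and 3248, 3189.6 and 3158 at 24 months, all under the P18 samples. Qdpr had 23392, 39062 and 29742 at 6 months and 35866, 32089 and 26752 at 24 months, between P18 and P75. S100a5 was likewise lower than at P75, at 179.8 ± 53.4 and 189 ± 4.87. Abca8a went further up, to 418 ± 53.2 and 552 ± 141, and Marcksl1 further down, to 1351 ± 112 and 1069 ± 58.8 (SD, n = 3).

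The division of genes by hydrophobic segments was also present at later ages, in comparisons that share samples with each other. From P75 to 6 months, 46.6% of genes with a segment were higher and 9.89% lower, against 20.04% and 30.9% of genes without one, where 27.1% and 25.4% of all genes were higher and lower. From 6 to 24 months the shares were 16.4% and 5.03% with a segment and 8.30% and 9.98% without, where 10.8% and 8.34% of all genes were.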

How the data were processed

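RNA from a myelin-enriched brain fraction was sequenced in 12 samples, and this comparison used the 3 of P18 and the 3 of P75. The deposited values are a signal per gene and sample: read counts that the authors divided by a size factor per sample. The submitters' processing notes name TopHat, HTSeq, DESeq and mm9 (the mouse genome build) and give no versions; the extraction, the library and the strand setting are not given in the sources used here, so overlapping and antisense genes may share reads. All values (100%) were whole multiples of 1 step per column within 0.02, so whole reads were recovered, and for 3 columns that step was nearly 1. Depth was 20299052 to 24097818 reads for the 6 samples, which limits the precision of low genes. Genes of near-identical copies (Fth1, tubulins, elongation factors) have uncertain levels. The table lists 21937 symbols without coordinates.

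Values were analysed as log2(value + 1), which understates changes of low genes. Genes with values of 10 or more in 3 or more of the 12 samples were tested, by limma 3.58.1 (R 4.3.3) with a trended prior and 4 age means, two-sided, with Benjamini-Hochberg adjustment over 14987 genes and a threshold of 0.05. Alternatives were pseudocounts of 0.5 and 5, other filters, quantile, total and TMM scaling, edgeR 4.0.16 and DESeq2 1.42.0 on recovered reads, the 6 samples alone, each sample left out, a replicate block and removal of a gene length trend. The fits were also run on simulated data with few changed genes, balanced in direction, and a single dispersion. That simulation could not show how scaling or a deviant sample affects the results.

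The comparison and the 55 gene lists were chosen with earlier results of these data known. Some genes belong to more than 1 list, so the lists are not separate sets. Ctss, for example, is in the lysosome and microglia lists, and Scn1a in the node and the sodium channel lists. Genes named were the 20 largest rises and falls that held without any 1 sample (mean of at least 50, ages apart, no clone or pseudogene symbols), the 10 largest gains and losses of normalised count, up to 6 members per list with the lowest adjusted p that held without any 1 sample, and all members of the tetrahydrobiopterin, glutamate receptor, GABA and glycine receptor, Hedgehog and tubulin lists with a set of myelin genes; some genes that the rule takes are not reported here. Proteins for the hydropathy classes came from GENCODE M21 coding sequences for 14449 of 14987 genes (96.4%).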

Additional observations from a re-analysis of the deposited data

How the results depend on the processing

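The number of genes that passed was 5118 to 6335 when 1 sample was left out, 5048 with the P18 and P75 samples alone, 5982 with edgeR and 5912 with DESeq2, and 3391 genes passed under all 25 alternatives. Scaling to all gene values lowered the number of lower genes to 1432; the cause was not tested, although Mbp alone took more of the sum at P18, and without Mbp in the sum the split was 48.9% higher. Higher genes made up 49.6% after quantile normalization, 51.5% with TMM scaling and 50.6% with edgeR. The 410 named genes gave 10245 values under the alternatives: 10045 kept their side of the threshold, 154 no longer passed, 46 newly passed and none reversed. Many of these genes were named because they held without any 1 sample, so keeping the call in those fits was fixed by the choice. Of 2750 counts of list members, 221 moved by more than 1.5 times, 39 of them under scaling to all gene values. Whether replicate numbers pair the samples could not be decided from deviations around means of 3 samples. These deviations had correlations of -0.03, -0.13 and -0.13 between same-numbered P18 and P75 samples. Between samples of unlike number they ran from -0.12 to 0.19. With a replicate block 5871 genes passed. In the tenth of genes with the lowest level 15.6% passed, against 50.5% in the highest, so changes of low genes were less detectable at this depth. Lowering the hydropathy threshold to 1.6, an alternative chosen after the data were seen, gave 37.4% higher and 10.5% lower genes with a segment.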

Other observations

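Further lists are given by their counts, to be read beside the shares of all genes, 21.7% higher and 18.7% lower. Of 22 metallothioneins and glucocorticoid-responsive genes, 6 were lower, among them Cdkn1a, Zbtb16 and Fkbp5, with log2 fold changes of -1.36, -1.28 and -1.06, and 4 higher, with Plin4 up by 2.3 (2 without P75 replicate 3). Of 21 clock genes, 5 were lower, with Nfil3 down by 1.09, and 4 higher (2 without P18 replicate 3, P75 replicate 1 or P75 replicate 2). Imprinted growth-control genes were higher in 8 of 29 cases (5 without P18 replicate 1 or 2 or P75 replicate 1 or 2) and lower in 7 (4 without P75 replicate 3), and Cdkn1c, a cell cycle inhibitor, fell by 1.01. Aminoacyl-tRNA synthetases were higher in 3 and lower in 4 of 22 cases (5 higher without P18 replicate 3, 2 lower without P75 replicate 1). Ependyma and choroid plexus markers were higher in 4 of 14 cases and lower in 1. Scaling to all gene values gave 5 higher and 6 lower in the glucocorticoid-responsive list, 6 higher and 4 lower among clock genes, 8 higher and 4 lower among imprinted genes and 4 higher and 0 lower among the synthetases.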
